A study of Mus musculus with 50 samples.

Results

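The cytosolic ribosomal protein genes were examined in whole brains of E13.5 mouse embryos carrying mutations of Gtf2i or Gtf2ird1. They were chosen by symbol alone, as the Rpl and Rps genes of the deposited count table together with Rplp0, Rplp1, Rplp2 and Rpsa, leaving out Rps6 kinase genes, pseudogene symbols, Rps4l and Rps4x. The rule found 71 of the 11708 genes in the table, 44 for the large subunit and 27 for the small subunit. All 71 had a RefSeq symbol, and they lay on 19 chromosomes, with 14 on chromosome 7. Rps6, Rpl19 and Rpl23a, which have no row in the table, were not analysed here.

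The RNA data were 18 whole-brain libraries of strain FVB/ANTJ in 6 groups of 3. The gtf2i cross, a name used here for the samples of the Gtf2i comparison, held wild-type (wt) embryos, embryos labelled gtf2i (read here as 1 mutant allele) and embryos labelled gtf2i/gtf2i. The ird1 cross held its own wt embryos, ird1 and ird1/ird1. The labels do not describe the lesion in either allele, and the counts do not show which exons were deleted. Gtf2i was at 624 ± 30.7 CPM (counts relative to the scaled library size) in the gtf2i-cross wt embryos, against 368 ± 6.23 with 1 mutant allele and 82.5 ± 0.797 in gtf2i/gtf2i (n = 3 each, ± SD). Gtf2ird1 was at 98.2 ± 13.5 CPM in wt of the ird1 cross and, in ird1/ird1, at 223 ± 4.21 CPM (n = 3 each, ± SD), so its RNA was higher, not lower, in the libraries labelled with that mutation, and its level does not check the label. It was also higher with the Gtf2i mutation, at 92.4 ± 7.32 CPM in wt of the gtf2i cross, 136 ± 8.92 with 1 mutant allele and 267 ± 21.0 in gtf2i/gtf2i (n = 3 each, ± SD). The libraries held 3239117 to 7371483 counts. The labels name neither litters nor pooling, so p-values measure only the spread between these samples, which may be technical. Contrasts within a cross share libraries, so their values are given side by side and are not independent.

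Ribosomal proteins assemble with ribosomal RNA in the nucleolus into a small subunit, which reads the mRNA, and a large subunit, which joins amino acids. Their mRNAs carry a stretch of pyrimidines at the 5′ end, the TOP motif, through which the growth regulator mTOR controls their translation. They are short, abundant transcripts with many processed pseudogenes. Neural progenitors need a high supply of ribosomes, and variants in several of these genes cause Diamond-Blackfan anaemia, a failure of red blood cell formation.

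The start sites of members at both ends of the range of levels are shown to set the pyrimidine stretch beside the expression values. Each sequence runs 5′ to 3′ on the gene's own strand from 40 bases before the start site to 20 bases from it onward, with coordinates of GRCm38.p6 (mm10) and sequence from RefSeq. The capitals mark the longest run of C and T within 20 bases of the start on either side. Rps15 (chr10:80292391-80292450, plus strand), Rpl4 (chr9:64173347-64173406, plus), Rplp0 (chr5:115559427-115559486, plus) and Rpl41 (chr10:128549149-128549208, minus) were among the 7 members with the highest levels. Rps12 (chr10:23787190-23787249, minus), Rpl9 (chr5:65391412-65391471, minus), Rpl5 (chr5:107900488-107900547, plus) and Rps13 (chr7:116334171-116334230, minus) were among the 6 with the lowest.
Rps15: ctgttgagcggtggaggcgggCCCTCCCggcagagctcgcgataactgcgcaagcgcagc
Rpl4: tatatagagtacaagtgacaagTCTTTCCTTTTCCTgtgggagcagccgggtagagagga
Rplp0: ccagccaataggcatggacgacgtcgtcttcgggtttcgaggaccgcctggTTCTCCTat
Rpl41: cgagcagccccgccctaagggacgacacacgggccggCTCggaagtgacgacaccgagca
Rps12: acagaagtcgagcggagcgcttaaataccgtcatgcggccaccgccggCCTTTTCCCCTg
Rpl9: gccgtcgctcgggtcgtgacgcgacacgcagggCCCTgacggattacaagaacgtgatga
Rpl5: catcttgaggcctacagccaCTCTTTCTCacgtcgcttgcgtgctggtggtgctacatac
Rps13: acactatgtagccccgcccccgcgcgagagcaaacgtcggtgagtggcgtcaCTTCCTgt

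Promoter sequence of 300 bases was found for 54 of the 71 members, in 64 entries, and the table held 32851 entries in all. A run of at least 8 pyrimidines within 20 bases of the start was present in 43.8% of the members' entries and 16% of all entries, and the median longest run was 7 against 5 bases. Among the sequences shown, long and short runs stood at both ends of the range of levels: Rpl4 had 14 and Rpl41 had 3 bases at the high end, and Rps12 had 11 and Rpl9 had 4 at the low end. Other motifs were searched on both strands over the 300 bases, and none of the motifs contains another. CTTTCC was in 46.9% of member entries and 26.6% of all, CCGGAAG, an ETS-type motif, in 35.9% and 8.86%, and the palindrome bound by ZBTB33 (Kaiso) in 9.38% and 0.466%. The TATA box TATAAA was in 9.38% of member entries and 13.6% of all, the E-box CACGTG in 9.38% and 7.15%, and GGATTA, a core bound by GTF2IRD1, in 4.69% and 7.06%. Matches are letters in these windows and were not tied to any expression value.

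Levels were compared per kilobase of transcript (CPM per kb), since transcript lengths differed. The median member stood at 45.4 CPM per kb against 11.5 over all genes, and 51 members were above that all-gene median. Rpl8 (ENSMUSG00000003970, chr15:76904071-76906318), a protein of the large subunit's core, was the highest at 811 CPM per kb. Other high levels were those of Rps15 at 495, the stalk protein gene Rplp1 at 437 and Rpl4 at 425 CPM per kb. The lowest were Rps13 at 2.98, Rpl5 at 3.82, Rpl30 at 3.90, Rpl9 at 3.92 and Rpl35a at 4.63 CPM per kb. The highest level was 272 times the lowest. The 10 members with the most counts carried 57.3% of all member counts. Rpl8 and Rps15 were 811 ± 101 and 495 ± 59.6 CPM per kb (SD over 18 libraries), further apart than their spread, while Rplp1 and Rpl4, at 437 ± 66.6 and 425 ± 29.7, did not differ beyond it. Rpl5, Rpl30 and Rpl9, at 3.82 ± 0.726, 3.90 ± 0.626 and 3.92 ± 0.709, did not either.

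**Figure D1:**
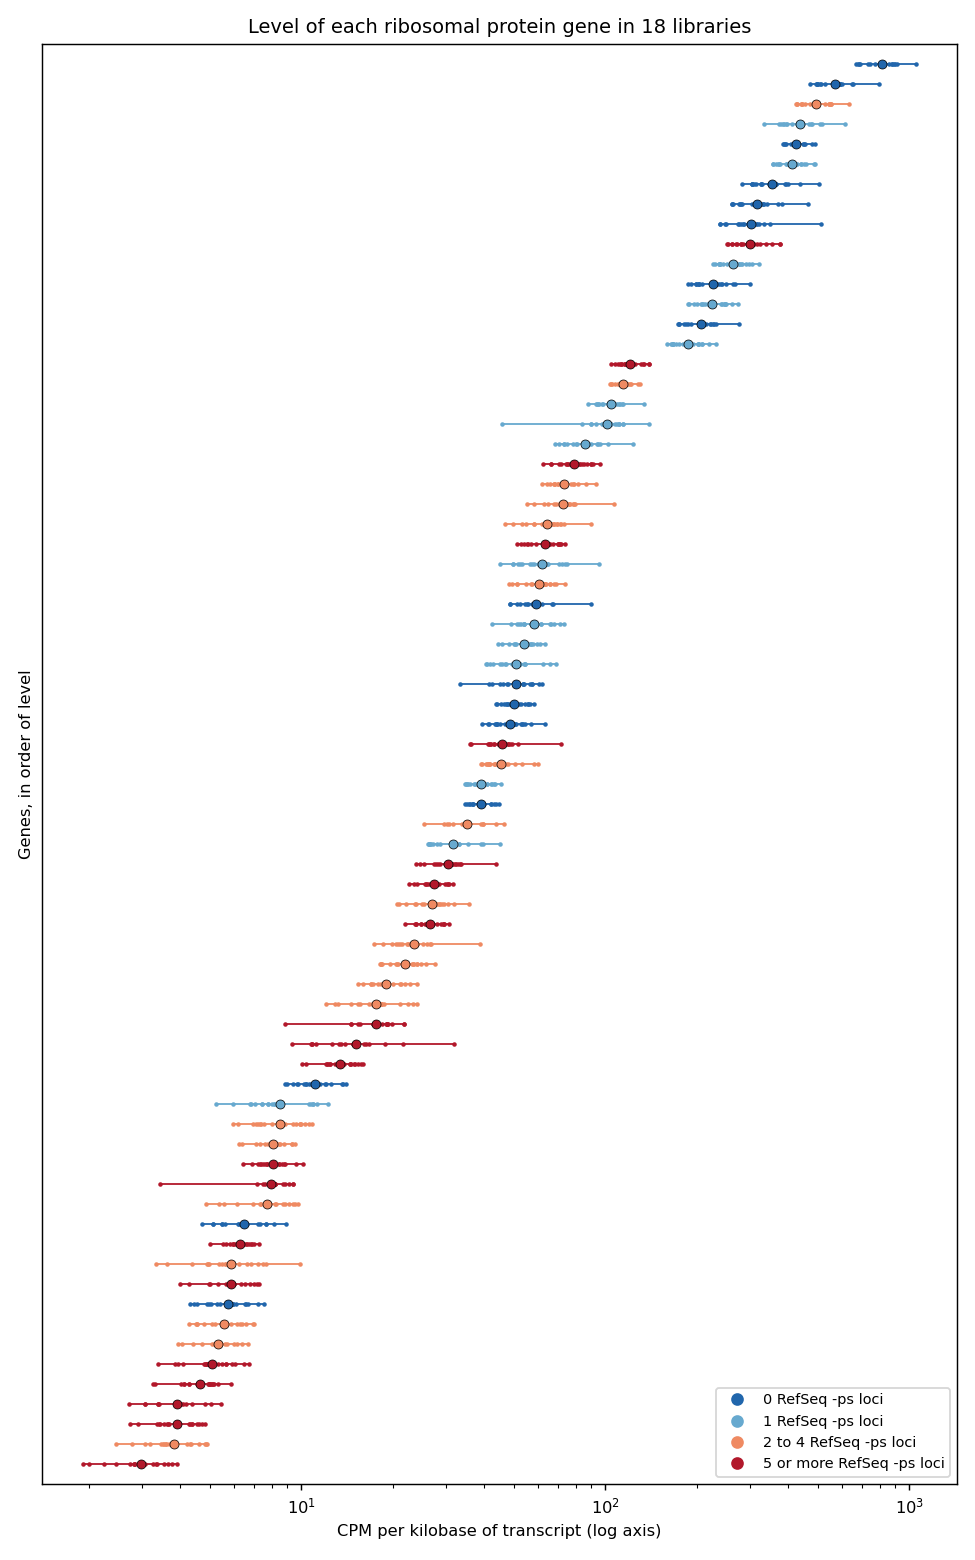
Level of each of the 71 genes in CPM per kilobase of transcript (log axis), in order of level. Small points are the 18 libraries, the large point is their mean and the line their range, coloured by the number of RefSeq loci whose symbol is the gene's with a -ps suffix; genes with none are spread over the upper and lower ranks but have the highest median, 133.

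The level per kb tended to be lower for members with more pseudogenes annotated under their symbol. RefSeq named 269 loci with a member's symbol and a -ps suffix, and pseudogenes under other symbols were not counted. The 16 members with 0 such loci had a median of 133 CPM per kb, the 15 members with 1 had 85.8, the 20 members with 2 to 4 had 22.7, and the 20 members with 5 or more had 14.3. Across the 71 genes Spearman's rho was -0.49 with the number of such loci and -0.40 with transcript length, as a description over genes that share libraries. Rpl22l1, Rps28 and Rpl11 were exceptions, with 0 such loci and 5.73, 6.50 and 11.1 CPM per kb. How reads that match a gene and its pseudogenes were counted is not given in the sources used here, so levels of members with near-identical copies are uncertain, and the part of this in the order of levels was not tested.

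The members' share of all counts ran from 0.744% to 0.989% per library, with 95% Wilson intervals no wider than 0.0108 percentage points to either side, which cover counting error only. In the gtf2i cross the wt libraries were at 0.897%, 0.760% and 0.765%, the gtf2i libraries at 0.744%, 0.771% and 0.778%, and the gtf2i/gtf2i libraries at 0.922%, 0.943% and 0.762%. The third gtf2i/gtf2i library lay within the gtf2i range, so the groups overlapped. In the ird1 cross the wt libraries were at 0.903%, 0.989% and 0.954%, the ird1 libraries at 0.844%, 0.939% and 0.872%, and the ird1/ird1 libraries at 0.804%, 0.838% and 0.884%. All 3 ird1/ird1 libraries lay below all 3 wt libraries of their cross, the highest of them at 0.884% and the lowest wt at 0.903%, and the ird1 libraries overlapped both. The group means were 0.949% ± 0.0430 for wt, 0.885% ± 0.0490 for ird1 and 0.842% ± 0.0398 for ird1/ird1, against 0.807% ± 0.0777 for wt, 0.764% ± 0.0177 for gtf2i and 0.876% ± 0.0991 for gtf2i/gtf2i (SD, n = 3 each). In whole brain, fewer cells of a type and less RNA per cell cannot be told apart.

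**Figure D2:**
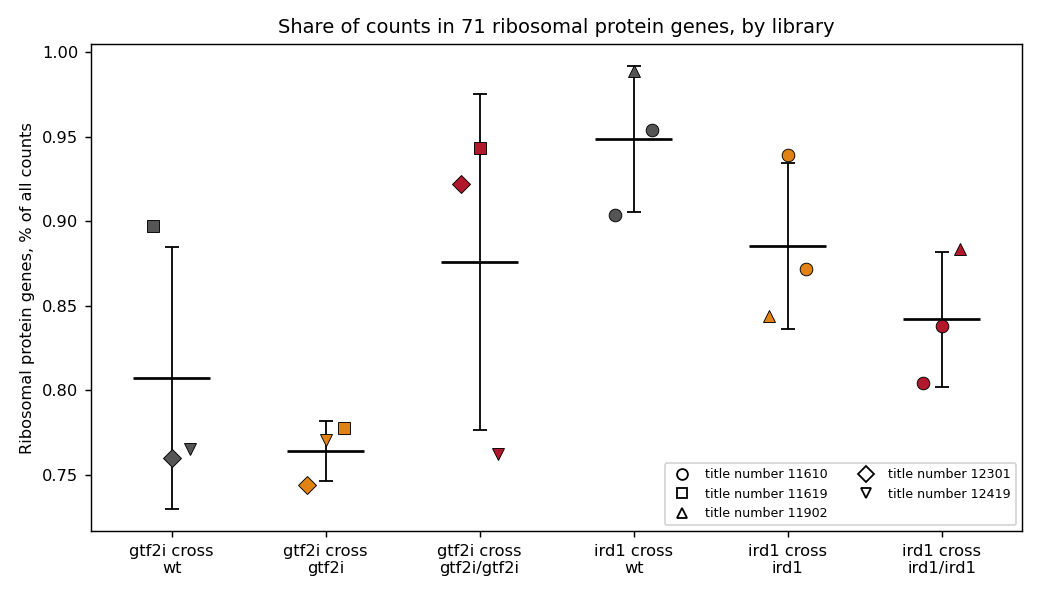
Share of each library's counts in the 71 genes, in percent, by group; the axis does not start at 0. Points are libraries, with shapes for the number that begins the sample title; the horizontal line is the group mean and the bar 1 SD. The 3 libraries of number 12419 lie between 0.762% and 0.771% whatever the genotype.

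The members moved together between libraries within a group. Sample titles begin with a number that several samples share, whose meaning the labels do not give. In the 3 libraries numbered 12419, of 3 different genotypes, 7 to 12 of the 71 members were above their own mean over the 18 libraries. Such counts were not particular to that number: the other gtf2i libraries had 17 and 9, and the second wt library of that cross 21. In the other gtf2i/gtf2i libraries 62 and 58 members were above it, and in the ird1-cross wt libraries 55, 49 and 60. Other short genes deviated the same way in most libraries, though not always as far. In the third gtf2i/gtf2i library the median deviation from the 18-library mean was -0.19 on the log2 scale for the members and -0.21 for 654 other genes with transcripts of up to 1200 bases, a limit that 36 members also met. In the first gtf2i/gtf2i library these medians were 0.13 and 0.04, in the second 0.16 and 0.10, and in the first ird1 library they had opposite signs, -0.01 and 0.02. The members' median transcript length was 1151 bases, against 3633.5 over all genes.

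The second wt library of the ird1 cross, the one with the lowest total, stood apart. It held the highest level of 34 of the 71 members and the lowest level of 5, counts that were not made over all genes. Its median deviation was 0.23 for the members and 0.28 for the other short genes. Rpl36 was 1.09 above its mean on the log2 scale there, Rps14 was 0.79 above and Rpl18 was 0.75 above. Rpl39, a small protein at the tunnel exit, was 1.11 below its mean in that library, Rpl10, which sits near the catalytic centre and completes the large subunit, 0.94 below, and Rps27l 0.59 below. For the contrasts of the other groups with these wt libraries, the members' medians or counts are also given without it.

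**Figure D3:**
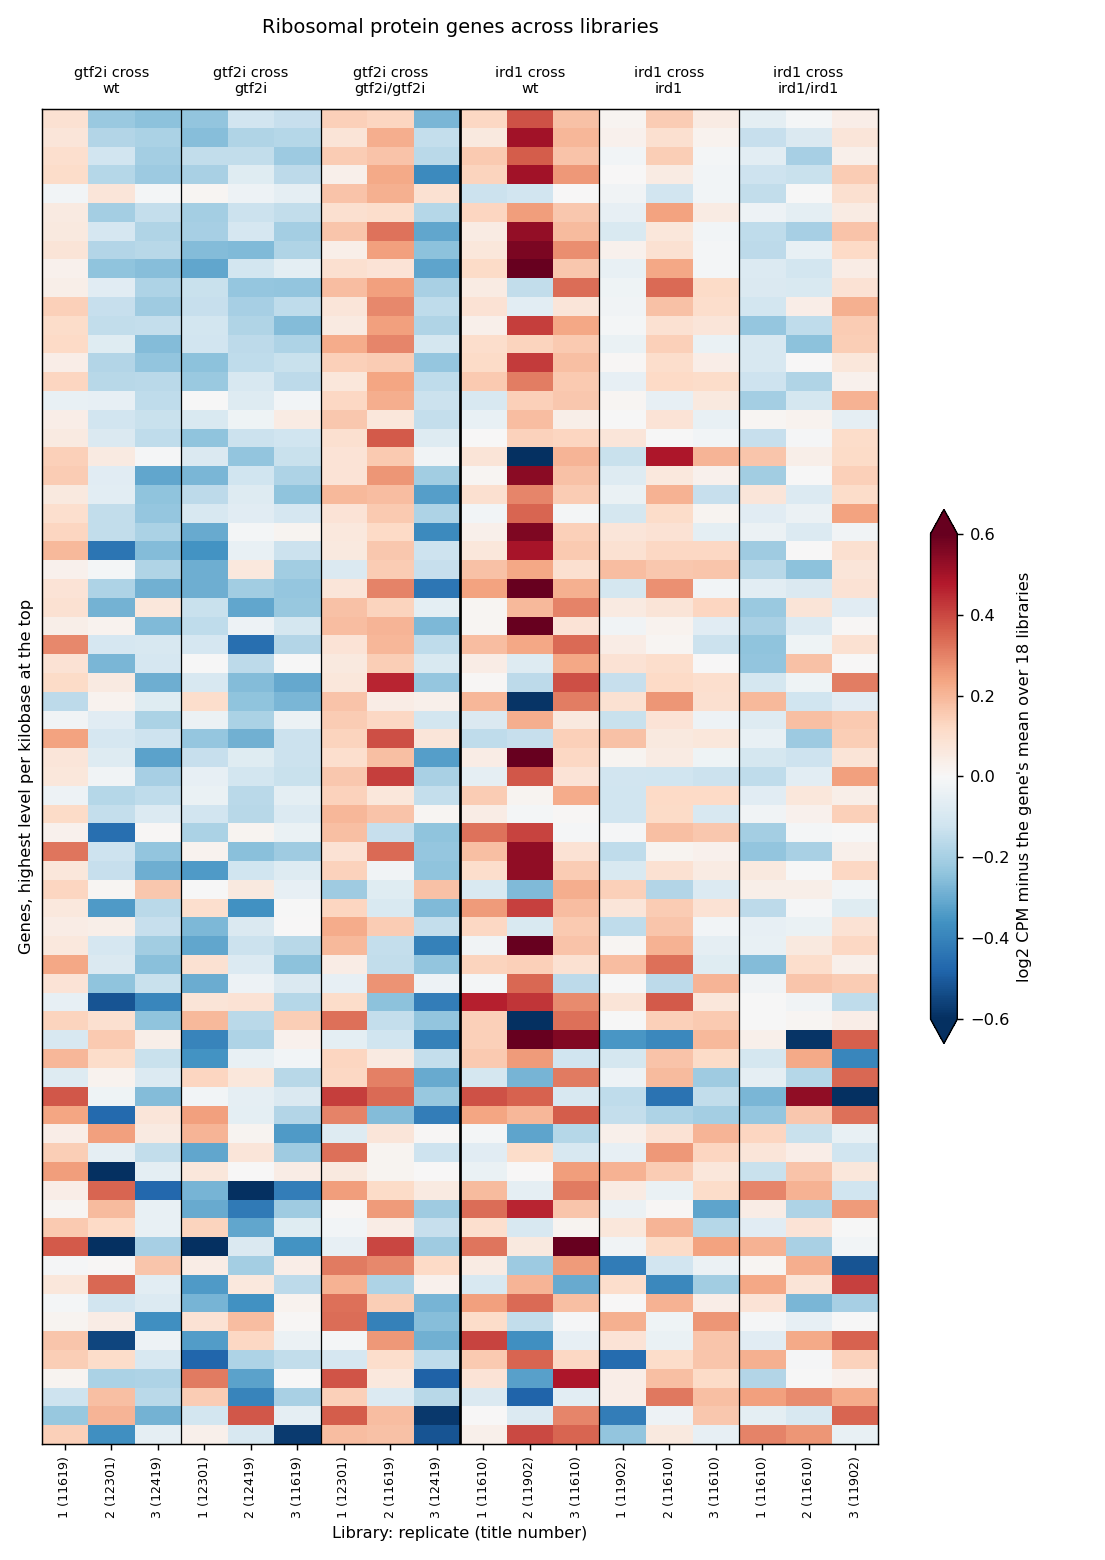
Heat map of log2 CPM of each gene (rows, highest level per kilobase at the top) minus that gene's mean over the 18 libraries (columns, by group, with replicate and title number); red is higher, blue lower, capped at 0.6 on either side. Whole columns are mostly red or mostly blue: 62 of 71 genes are above their mean in the first gtf2i/gtf2i library and 10 in the third.

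In gtf2i/gtf2i against wt, 57 members were higher (80.3%, against 50.4% of all genes) and 14 were lower. The median of their log2 fold changes was 0.11, with 25th and 75th percentiles of 0.03 and 0.14, against 0.002 over all genes. None of the 71 members was called, that is, reached an adjusted p under 0.05 by edgeR's quasi-likelihood test over all genes, beside 0.94% of all genes. At an unadjusted p under 0.05 there were also 0 members, against 14.4% of all genes, and DESeq2 called 0 members and 2.65% of all genes. With the title number as a replicate block, 624 genes were called in place of 110, and still 0 members. The libraries of both groups did not overlap for 2 members, both higher, which is 2.82% against 7.82% of all genes. They were Rpl4, at 644, 686 and 647 CPM in wt and 735, 756 and 695 in gtf2i/gtf2i, and Rps27l, at 25.8, 29.3 and 27.4 against 32.5, 29.8 and 29.5 CPM. Every gtf2i/gtf2i library was above every wt library for both, yet the adjusted p by edgeR was 0.439 for Rpl4 (log2 fold change 0.14, SE 0.0755) and 0.679 for Rps27l (0.15, SE 0.127). The highest log2 fold change among members was 0.21 (SE 0.259), for Rpl31, and the lowest was -0.25 (SE 0.207), for Rpl36, and neither was called. Rpl31 stood at 9.84, 3.59 and 7.87 CPM in wt, and without the second wt library its value was -0.08.

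Leaving out the third gtf2i/gtf2i library, the one numbered 12419, changed this result: 4 members, Rpl41 and Rpl32 among them, were then called higher by edgeR (5.63%, against 9.9% of all genes), and the members' median was 0.22. Leaving out other single libraries lowered the median, to 0.05 without the first or the second gtf2i/gtf2i library, 0.07 without the second wt library and 0.06 without the third, while it was 0.18 without the first wt library, with 0 members called in each. Rpl41 illustrates the split, at 253, 226 and 214 CPM in wt and 272, 304 and 195 CPM in gtf2i/gtf2i. Leaving out all 3 libraries of that number gave a median of 0.17 and 0 called members, beside 2.96% of all genes. Within a number, the median difference of the members between gtf2i/gtf2i and wt on the log2 scale was 0.06 for 11619, 0.23 for 12301 and -0.01 for 12419, each from 1 library against 1.

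In gtf2i against wt, 55 members were lower and 16 higher (22.5%, against 49.6% of all genes), with a median of -0.09. None was called by edgeR, beside 0.00854% of all genes, and 1 member had an unadjusted p under 0.05 (1.41%, against 0.974% of all genes lower by that rule). That was Rpl39, at 67.04, 62.9 and 60.4 CPM in wt and 57.0, 51.5 and 55.1 CPM in gtf2i, with no overlap (log2 fold change -0.22, SE 0.0939, adjusted p by edgeR 1). Rps28, Rpl35a, Rpl23 and Rps9 were also below every wt library, so that 5 members did not overlap (7.04%, against 3.79% of all genes). The median rested on the first wt library, without which it was -0.005. Within a number it was -0.22 for 11619 and -0.03 for 12301, and for 12419 it had the opposite sign, 0.06 with 43 members higher. The extremes were Rpl10a at 0.30 (SE 0.161) and Rpl36a at -0.43 (SE 0.234).

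In gtf2i/gtf2i against gtf2i the members' median was 0.18, with 60 higher (84.5%, against 51.5% of all genes) and 11 lower. None was called, beside 3.12% of all genes, while 12 members, all higher, had an unadjusted p under 0.05, which is 16.9% of the members against 7.14% of all genes that were higher by that rule. All 27 small-subunit members were higher, with a median of 0.22, against 33 of 44 large-subunit members, with a median of 0.12. Rpl23, a large-subunit protein that binds the p53 regulator MDM2, came closest to the threshold. It stood at 43.5, 41.8 and 46.6 CPM in gtf2i and 56.0, 66.98 and 53.7 CPM in gtf2i/gtf2i, with every library of one group above every library of the other (log2 fold change 0.41, SE 0.124, adjusted p by edgeR 0.0948). It was the 1 member with an adjusted p under 0.1, a rule that 5.74% of all genes met. With the title number as a replicate block, Rpl22 and Rpl23 were called (2.82%, against 7.62% of all genes). The groups did not overlap for 10 members, all higher (14.1%, against 9.17% of all genes), among them Rpl4, Rpl22, Rpl32, Rps20 and Rpl39. The highest value was that of Rpl36a at 0.59 (SE 0.234), a gene at only 4.50 CPM in gtf2i and 6.83 in gtf2i/gtf2i, and the lowest that of Rpl10a at -0.17 (SE 0.161). Without the third gtf2i/gtf2i library 17 members were called (23.9%, against 11.8% of all genes), and without the 3 libraries numbered 12419 there were 6, Rps15, Rpl41 and Rpl22 among them (8.45%, against 7.25%). Without the first gtf2i/gtf2i library, in contrast, the median was 0.10 and 2 members had an unadjusted p under 0.05, against 13.0% of all genes. Without the second gtf2i/gtf2i library 3 members did (11.5% of all genes), and without the second or the third gtf2i library 3 and 4 (11.7% and 11.2%). With a trend on transcript length removed from each library, the median was 0.11 and 8 members did, against 18.1% of all genes. Within a number the median difference was 0.28 for 11619 and 0.29 for 12301, and for 12419 it was -0.05, with 43 members lower.

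In the ird1 cross most members were lower in the mutants. In ird1/ird1 against wt, 58 members were lower and 13 higher (18.3%, against 49.5% of all genes). The median was -0.16 on the log2 scale, with 25th and 75th percentiles of -0.31 and -0.04. None of the 71 was called by edgeR or by DESeq2, beside 0.00854% of all genes by edgeR, and the smallest adjusted p was 0.296. At an unadjusted p under 0.05, 25 members were lower and 1 higher, which is 35.2% and 1.41% of the members against 8.4% and 7.7% of all genes. The libraries did not overlap for 15 lower members, 21.1% against 11.8% of all genes, and for 1 higher member, 1.41% against 15.1%.

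Rpl10a, a protein of the flexible L1 stalk, had the smallest p. It stood at 38.8, 37.8 and 34.2 CPM in wt and 28.0, 27.6 and 25.2 CPM in ird1/ird1, and at 29.5, 36.2 and 29.3 CPM in ird1. All 3 ird1/ird1 libraries lay below all others of the cross, and 1 of the ird1 libraries lay within the wt range. Its log2 fold change was -0.46 (SE 0.128, adjusted p by edgeR 0.296). Rps15, at the decoding side of the small subunit, stood at 313, 362 and 317 CPM in wt and 269, 245 and 287 CPM in ird1/ird1, again without overlap (-0.32, SE 0.0976, adjusted p by edgeR 0.296). Rpl8 stood at 895, 1072 and 928 CPM against 788, 815 and 845 CPM (-0.25, SE 0.0983, adjusted p by edgeR 0.296).

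The acidic stalk recruits elongation factors to the ribosome, and its base is the protein of Rplp0, with paired arms from Rplp1 and Rplp2. All 3 genes were lower in ird1/ird1, with a median of -0.31. Rplp2 stood at 199.95, 222 and 200.3 CPM in wt and 165, 159 and 183 CPM in ird1/ird1 (-0.31, SE 0.0925, adjusted p by edgeR 0.296), with no overlap. Rplp1 stood at 237, 307 and 258 CPM against 198, 197 and 239.8 CPM, so that the highest ird1/ird1 library passed the lowest wt library (-0.35, SE 0.108). Rplp0 stood at 611, 665 and 623 CPM against 546, 535 and 576 CPM (-0.21, SE 0.0981).

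The extremes were Rpl36 at -0.65 (SE 0.289) and Rpl30 at 0.42 (SE 0.172). Rpl36 stood at 6.17, 12.2 and 8.30 CPM in wt and 5.68, 3.58 and 7.22 CPM in ird1/ird1, groups that overlapped, and the highest value came from the wt library that stood apart, without which the log2 fold change was -0.42. Rpl30, whose protein also feeds back on its own splicing in yeast, was the 1 higher member without overlap, at 8.73, 6.58 and 8.88 CPM against 11.1, 11.4 and 10.9 CPM. Without the second wt library the median over the members was -0.15 and 16 members were lower at an unadjusted p under 0.05, against 7.49% of all genes in either direction. Without the first ird1/ird1 library 9 were (8.40% of all genes), and without the second 12 (10.2%). Within a number, the median difference between ird1/ird1 and wt was -0.19 for 11610 (2 libraries against 2) and -0.18 for 11902 (1 against 1).

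**Figure D4:**
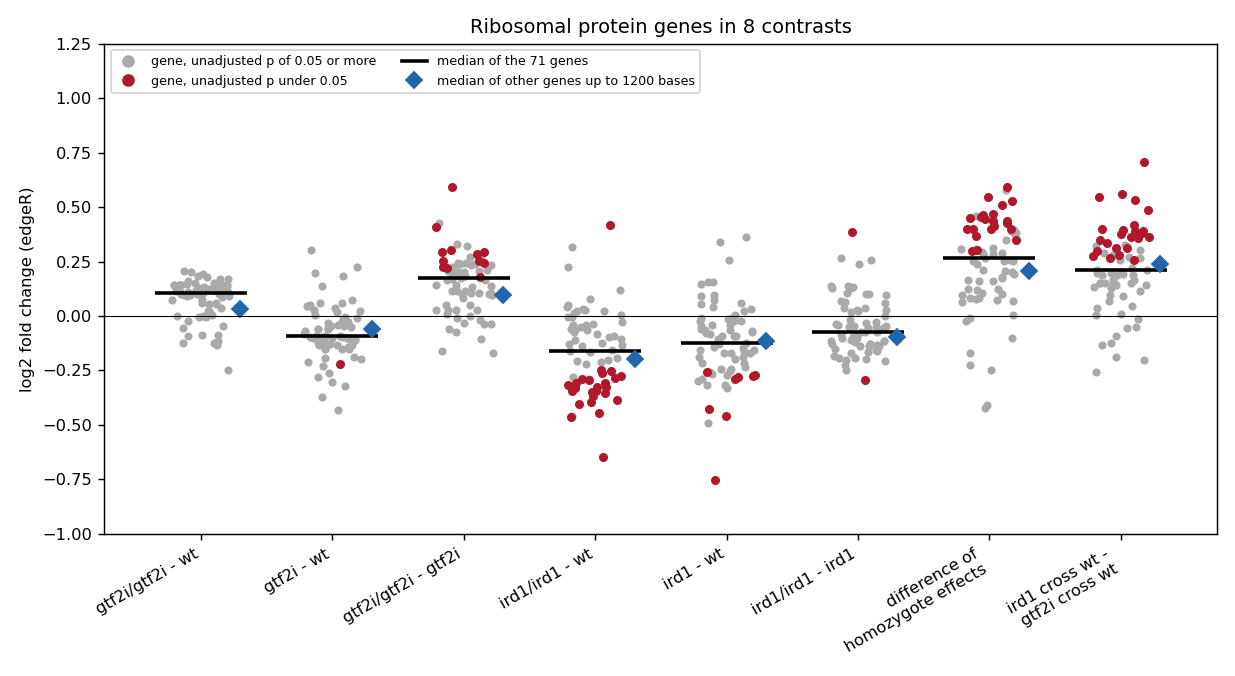
Log2 fold change of each of the 71 genes by edgeR in 8 contrasts (points, red where the unadjusted p is under 0.05), with their median (bar) and the median of the other genes with transcripts of up to 1200 bases (diamond). Medians are -0.16 in ird1/ird1 against wt and 0.11 in gtf2i/gtf2i against wt, and the other short genes lie at -0.20 and 0.03.

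Fold changes in the ird1 cross ran with transcript length over all genes. The 654 other short genes had a median of -0.20 in ird1/ird1 against wt, and of 0.03 in gtf2i/gtf2i against wt, below the members' 0.11. Among the members, the 36 with transcripts of up to 1200 bases had a median of -0.22 in ird1/ird1 against wt, with 16 lower at an unadjusted p under 0.05, and the 35 longer ones had -0.13, with 9 lower. In gtf2i/gtf2i against wt their medians were 0.11 and 0.10. With a smooth trend of log2 CPM on transcript length removed from each library, the median of the members was -0.04 in ird1/ird1 against wt, with 30 higher and 41 lower and with 5 lower and 2 higher at an unadjusted p under 0.05, against 12.9% of all genes in either direction. It was 0.09 in gtf2i/gtf2i against wt, with 55 higher and 16 lower. In gtf2i against wt it was -0.04, in place of -0.09, so the trend touched both crosses. The part of length in the members' values was otherwise not tested.

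**Figure D5:**
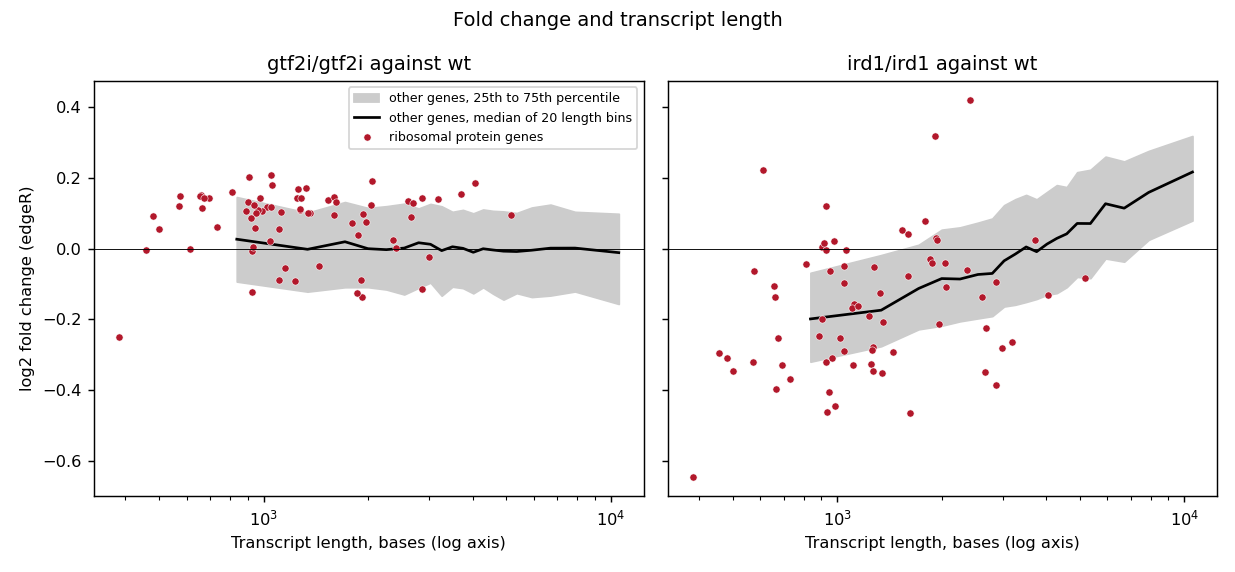
Log2 fold change by edgeR against transcript length in bases (log axis) for the homozygous groups against wt. Red points are the ribosomal protein genes, the line is the median of other genes in 20 bins of length and the band their 25th to 75th percentile; the line slopes upward in the ird1 cross and is nearly flat in the gtf2i cross, where most red points lie above it (57 of 71 are above 0).

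In ird1 against wt the median was -0.12, with 56 members lower and 15 higher (21.1%, against 48.9% of all genes). None was called, beside 0% of all genes, and 8 members, all lower, had an unadjusted p under 0.05 (11.3%, against 1.73% of all genes lower by that rule). They were Rpl36, Rpl34, Rps28, Rplp1, Rps9, Rpl41, Rpl37 and Rps24, and the libraries did not overlap for 12 lower members (16.9% against 3.89%) and 2 higher ones, Rpl30 and Rps27a (2.82% against 3.14%). Rplp1 stood at 216, 223 and 213 CPM in ird1, below all 3 wt libraries (-0.29, SE 0.108, adjusted p by edgeR 0.997). The highest value was that of Rpl30 at 0.36 (SE 0.172) and the lowest that of Rpl36 at -0.75 (SE 0.290). Single libraries moved this count: 17 members were lower by that rule without the first wt library (median -0.15), against 5.93% of all genes in either direction. Without the second wt library 3 were (median -0.09), against 2.43% of all genes, without the first ird1 library 4 (1.83%) and without the third 2 (2.30%). With the length trend removed the median was -0.05, and 4 members were lower and 1 higher by that rule, against 2.98% of all genes.

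In ird1/ird1 against ird1 the median was -0.07, with 48 lower and 23 higher (32.4%, against 49.1% of all genes), and none was called beside 0% of all genes. At an unadjusted p under 0.05, 1 member was lower (1.41%, against 1.82% of all genes) and 1 higher (1.41%, against 2.84%). The lower one was Rpl7a, at 74.6, 73.2 and 73.4 CPM in ird1 and 58.3, 55.2 and 68.8 CPM in ird1/ird1 (-0.30, SE 0.102). The higher one was Rpl22l1, at 11.6, 8.19 and 9.32 CPM against 12.7, 11.4 and 14.4 CPM (0.38, SE 0.176). Rpl7a, Rpl10a, Rpl27 and Rpl9 were the 4 members without overlap, all lower (5.63%, against 8.54% of all genes). The median depended on single libraries: it was -0.01 without the first ird1/ird1 library and -0.02 without the second ird1 library. Within number 11610 the median difference was -0.14, and within 11902 it was 0.09, with 49 members higher. With the length trend removed the median was -0.002.

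The contrast of both homozygote effects was tested directly over the 18 libraries. The effect in the gtf2i cross minus that in the ird1 cross was above 0 for 63 members (88.7%, against 48.4% of all genes), with a median of 0.27 against -0.01 over all genes. None was called by edgeR, beside 0.171% of all genes, and 21 members, all above 0, had an unadjusted p under 0.05 (29.6%, against 6.48% of all genes). Rpl10a had the highest value at 0.59 (SE 0.207) and Rpl30 the lowest at -0.42 (SE 0.246), and the smallest adjusted p was 0.240, for Rps15. With the length trend removed the median was 0.10, with 48 members above 0, and 8 members had an unadjusted p under 0.05 (against 12.1% of all genes in either direction). Leaving out the third gtf2i/gtf2i library gave 11 called members (15.5%, against 6.18% of all genes) and a median of 0.39. Without the second ird1-cross wt library the median was 0.24 and 10 members had an unadjusted p under 0.05, against 9.93% of all genes. There were also 10 without the second or the third wt library of the gtf2i cross (10.8% and 7.84%), 9 and 6 without its first or second homozygote (8.00% and 8.25%) and 11 without the first ird1/ird1 library (8.62%). This contrast also contains the difference between the wt groups. Their mean of the members' median deviation was -0.06 ± 0.12 for the gtf2i cross and 0.16 ± 0.08 for the ird1 cross (SD, n = 3). The homozygotes lay closer together, with means of 0.03 ± 0.19 for the gtf2i cross and -0.0008 ± 0.07 for the ird1 cross. The part of the wt difference in the contrast was not tested.

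The wt groups carry no labelled mutation. The members' median was 0.21 higher in wt of the ird1 cross than in wt of the gtf2i cross, with 62 higher (87.3%, against 51.2% of all genes) and 9 lower. By edgeR 0 members and 0% of all genes were called, although 17 members (23.9%, against 20.4% of all genes) had an adjusted p under 0.1. At an unadjusted p under 0.05 there were 24 members, all higher (33.8%, against 15.6% of all genes). Rpl10a differed the most, at 27.0, 19.5 and 21.3 CPM in wt of the gtf2i cross and 38.8, 37.8 and 34.2 CPM in wt of the ird1 cross, with no overlap (0.71, SE 0.147, adjusted p by edgeR 0.0689). The libraries did not overlap for 15 higher members (21.1%, against 15.6% of all genes) and for 1 lower member (1.41%, against 16.3%), Rps27a, which had the lowest value at -0.26 (SE 0.175). DESeq2 called 11 members here (15.5%, against 11.6% of all genes). EdgeR called 17 without the first gtf2i-cross wt library (23.9%, against 17.7%) and 10 without the first ird1-cross wt library (14.1%, against 8.81%). Without the second ird1-cross wt library 15 members were higher at an unadjusted p under 0.05 (15.9% of all genes), and without the third gtf2i-cross wt library 14 were (19.5%). The other short genes had a median of 0.24, and with the length trend removed the members' median was 0.04, with 40 higher and 31 lower, and 9 higher and 4 lower at an unadjusted p under 0.05, against 27.0% of all genes in either direction. Of the 12 neuron markers 10 were lower in wt of the ird1 cross, with a median of -0.36. At an unadjusted p under 0.05, 6 of them were lower, as were 17.1% of all genes. Their summed levels did not overlap, at 5756 to 6365 CPM in wt of the gtf2i cross and 5409 to 5632 CPM in wt of the ird1 cross. All 10 red blood cell markers were lower, with a median of -0.13, though the sums overlapped. All 5 measured microglia markers were higher (median 0.32), with sums of 50.1 to 70.0 and 73.6 to 78.0 CPM that did not overlap. At an unadjusted p under 0.05, 2 of them were higher, as were 15.6% of all genes. Of the choroid plexus markers 4 of 5 were higher (median 0.28), with sums of 273 to 359 and 348 to 383 CPM that overlapped. The other lists had medians from -0.09 (radial glia) to 0.04 (telencephalon), and no marker of any list was called. The part of these cells in the members' values was not tested. The wt groups come from different crosses and title numbers, so cross, collection and library preparation cannot be told apart.

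By group mean, 41 of the 71 members were highest in wt of the ird1 cross, and 44 were lowest in gtf2i. The shares over all genes were not computed. The members moved together between libraries, so these counts are not separate results for each member. Rpl5 and Rpl11 encode the proteins that travel with 5S ribosomal RNA and can bind MDM2. Rpl5 was at 7.21 ± 1.45 CPM in wt of the gtf2i cross and 7.93 ± 2.57 CPM in its homozygotes, and at 8.13 ± 1.18 and 8.12 ± 1.51 CPM in the ird1 cross (± SD, n = 3). Rpl11 was at 9.74 ± 0.403, 10.5 ± 2.23, 10.0 ± 2.25 and 10.5 ± 2.09 CPM in the same order. The wt and homozygous groups overlapped for both genes, and neither was called.

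Of the genes listed here as alternative ribosomal proteins, which are related in sequence to a standard one, Rpl7l1, Rpl22l1 and Rps27l were in the table. Rpl22 was at 204 ± 14.8 CPM in wt and 235 ± 36.7 CPM in the gtf2i/gtf2i homozygotes, and its listed alternative Rpl22l1 at 11.8 ± 1.79 and 11.0 ± 1.54 CPM (± SD, n = 3). In the ird1 cross Rpl22 was at 226 ± 11.9 and 211 ± 18.3 CPM, against 10.4 ± 1.93 and 12.9 ± 1.52 CPM for Rpl22l1. None of the 4 differences was called. Rpl7l1 was at 93.6 ± 5.08 CPM in wt and 103 ± 10.3 CPM in gtf2i/gtf2i, and Rpl7, its standard partner, at 174 ± 11.6 and 187 ± 19.8 CPM. Of the other partners in wt and gtf2i/gtf2i, Rpl3 was at 9.27 ± 1.45 and 9.39 ± 2.76 CPM, Rpl10 at 16.1 ± 2.24 and 16.1 ± 3.62 CPM, and Rpl26 at 74.5 ± 3.19 and 83.3 ± 10.0 CPM.

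Rps19, the gene most often altered in Diamond-Blackfan anaemia, stood at 124, 189.9 and 132 CPM in wt of the ird1 cross and 112, 111 and 127 CPM in ird1/ird1. The groups overlapped (-0.35, SE 0.133, adjusted p by edgeR 0.296). The highest value again came from the second wt library, without which the fold change of Rps19 is not reported here. Rpl38, needed for the translation of Hox mRNAs in the mouse embryo, was at 33.6, 48.7 and 36.3 CPM in wt of the ird1 cross and at 31.9 ± 0.715 CPM in its homozygotes (-0.30, SE 0.137), with no overlap. Its highest value was again in the second wt library, without which the fold change is not reported here. Rpl38 was at 31.5 ± 3.96 and 31.8 ± 5.76 CPM in wt and gtf2i/gtf2i. Rpsa, which also acts as a laminin receptor, was at 15.3 ± 1.26 and 15.5 ± 1.10 CPM in the ird1 cross, and Rps27a, made as a fusion with ubiquitin, at 6.62 ± 0.729 and 7.39 ± 0.717 CPM (SD, n = 3 each). Of the 19 genes listed for the anaemia 17 were in the table. Against wt their median was 0.09 in the gtf2i/gtf2i and -0.11 in the ird1/ird1 homozygotes, with 0 called; the lowest in the ird1 cross was Rpl35 at -0.41.

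Other lists of the translation pathway gave the setting, each as the median log2 fold change in gtf2i/gtf2i and then in ird1/ird1 against wt of its cross. The 75 genes of the mitochondrial ribosome were at 0.02 and -0.14, with 0 called and 14 of 75 lower at an unadjusted p under 0.05 in the ird1 cross, where 8.4% of all genes were. The 91 genes for ribosome assembly were at 0.04 and 0.01, also with 0 called. Initiation factors (38 of 40 listed genes measured) were at 0.05 and -0.003, and regulators in the mTOR pathway (19 of 20) at -0.05 and -0.06, with 0 called in both. The 22 other mRNAs with a TOP motif were at 0.12, with 21 higher, and -0.03, with 0 called. The p53 targets (19 of 26) were at 0.14 and 0.02, with 0 called. The 6 measured genes at the tunnel exit were at 0.16 and -0.12, the 2 genes of the 5S particle at 0.10 and -0.01, the 3 alternative proteins at 0.13 and -0.06 and their 7 partners at 0.09 and -0.04, all with 0 called. Rack1, a signalling scaffold on the small subunit, was at 997 and 1101 CPM in wt and gtf2i/gtf2i (group means) and, with Fau, gave a median of -0.02 and -0.15.

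The highest and lowest log2 fold changes of these lists were not called, apart from Eef1a2. In the gtf2i cross the mitochondrial ribosome ran from -0.24 (Mrps17) to 0.40 (Mrps14), assembly factors from -0.16 (Wdr12) to 0.33 (Mphosph10), and initiation factors from -0.23 (Eif4a2) to 0.24 (Eif4b). The mTOR list ran from -0.30 (Myc, a driver of ribosome production) to 0.30 (Eif4ebp1, the translation repressor that mTOR inactivates), and the p53 list from -0.31 (Sesn1) to 0.66 (Sesn2, a stress-induced inhibitor of mTOR; adjusted p by edgeR 0.115). In the ird1 cross the corresponding ranges were -0.53 (Mrps28) to 0.38 (Mrpl50), -0.44 (Mrto4) to 0.37 (Noc3l), -0.43 (Eif3g) to 0.35 (Eif3a), -0.42 (Rps6kb2) to 0.40 (Rictor) and -0.38 (Gadd45a) to 0.55 (Rrm2b). Other TOP mRNAs ran from -0.17 (Fau) to 0.38 (Vim) in the gtf2i cross. Npm1 was the highest of them in the ird1 cross, at 0.36. The 10 elongation factors had medians of 0.04 and -0.16, with Eif5a2 the highest at 0.35 and 0.33.

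Among the lists of the translation pathway 1 gene was called against wt. Eef1a2, the form of elongation factor 1A found in mature neurons and muscle, fell in gtf2i/gtf2i from a mean of 87.7 to 50.7 CPM (log2 fold change -0.79, SE 0.152, adjusted p by edgeR 0.0242). It also fell against gtf2i, by 0.84 on the log2 scale (SE 0.152, adjusted p by edgeR 0.0121). Its log2 fold change in ird1/ird1 against wt was -0.29 (adjusted p by edgeR 0.331), and the contrast of both effects was not called (-0.51, SE 0.23, adjusted p 0.357). Vim, an intermediate filament gene of radial glia with a TOP motif, rose in gtf2i/gtf2i against gtf2i from 890.4 to 1180.35 CPM (0.40, SE 0.0938, adjusted p by edgeR 0.0346).

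Markers of cell types differed between the same groups. The summed level of 10 measured red blood cell markers (of 17 listed) was 4177 to 5383 CPM in wt, 3878 to 4284 CPM in gtf2i and 5884 to 9263 CPM in gtf2i/gtf2i. Against wt, 2 of the 10 were called higher, where 0.94% of all genes were called in either direction. The summed level of 11 radial glia markers was 2846 to 3194 CPM in wt and 3437 to 3980 CPM in gtf2i/gtf2i. The 14 markers of the telencephalon were at 1645 to 1876 CPM in wt and 1197 to 1304 CPM in gtf2i/gtf2i, with 7 called lower. In gtf2i/gtf2i against gtf2i, 5 red blood cell, 3 radial glia and 1 mesenchyme markers were called higher. Called lower there were 9 telencephalon and 1 choroid plexus markers, beside 3.12% of all genes called in either direction. In the ird1 cross wt and ird1/ird1 overlapped for red blood cells (3254 to 5118 and 3400 to 5640 CPM). There, 0 of the markers of any list was called, beside 0.00854% of all genes. The microglia sums did not overlap, at 73.6 to 78.0 CPM in wt and 65.3 to 70.8 CPM in ird1/ird1. Of the 5 microglia markers 3 were lower and 2 higher (median -0.20). Of the 14 telencephalon markers 9 were lower and 5 higher. At an unadjusted p under 0.05, 4 of them were lower, as were 8.4% of all genes. The 12 neuron markers were at 5756 to 6365 and 4970 to 6479 CPM in the gtf2i cross and at 5409 to 5632 and 5445 to 6208 CPM in the ird1 cross, so that the sums overlapped. Gene by gene, 9 of the 12 neuron markers were lower in gtf2i/gtf2i than in wt (median -0.18), 2 of them at an unadjusted p under 0.05, against 8.3% of all genes. In ird1/ird1, 10 were higher than in wt (median 0.21), 4 of them by that rule, against 7.7% of all genes. Both directions are opposite to those of most ribosomal protein genes. Mesenchyme (14 genes), endothelium (9 of 10), microglia (5 of 9) and choroid plexus (5 of 7) were at summed levels of 1126 to 1339, 369 to 433, 50.1 to 70.0 and 273 to 359 CPM in wt, and at 1243 to 1989, 391 to 446, 65.1 to 82.7 and 196 to 224 CPM in gtf2i/gtf2i. The choroid plexus markers did not move together: 1 was called lower, while 3 of the 5 were higher, with a median log2 fold change of 0.22. In ird1 against wt, all 14 mesenchyme, 8 of 9 endothelium and 12 of 14 telencephalon markers were lower (medians -0.18, -0.14 and -0.10). All 10 red blood cell and 10 of 12 neuron markers were higher (medians 0.17 and 0.15), as were 8 of 11 radial glia markers (0.03). Of the microglia and choroid plexus markers 3 of 5 were lower in each list, and 0 markers of any list were called. Of 7 listed skeletal muscle genes 0 were in the table. The part of these cell types in the members' levels was not tested.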

How the data were processed

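The 18 RNA libraries were analysed, and the 32 chromatin and input samples were not analysed here. Total RNA was depleted of ribosomal RNA before library preparation, per the labels' protocols. The authors deposited whole-number read counts per gene, with 1 transcript length per gene. Trimmomatic, STAR, HTSeq and the build mm10 are named in the submitters' processing notes, without versions; the strand setting and the treatment of reads with several matches are not given in the sources used here. The smallest count in the table is 10, and the smallest of a member 17.

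Counts were scaled by TMM and tested with edgeR 4.0.16 (quasi-likelihood test, filterByExpr, which removed 0 genes, Benjamini-Hochberg over 11708 genes) in R 4.3.3, with the 9 libraries of a cross per fit, or all 18 for contrasts across crosses. DESeq2 1.42.0 was an alternative. Fold changes are on the log2 scale, and CPM use the scaled totals. Members and lists were chosen with earlier results of these data known. Named members were any called, the highest and lowest fold change per contrast, the 5 highest and 5 lowest levels per kb, and genes fixed by role; from other lists, called genes and the highest and lowest in the homozygotes against wt; some genes that meet this rule are not reported here. Members that illustrate a group without overlap were picked after their values were seen.

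Library numbers in the titles were looked at as pairs. Deviations of gtf2i/gtf2i and wt libraries of the same number (11619, 12301 and 12419) correlated at 0.377, 0.103 and 0.520. For gtf2i and wt the values were 0.280, 0.354 and 0.0485, and for gtf2i/gtf2i and gtf2i 0.0614, 0.114 and 0.0576. In the ird1 cross such correlations had both signs. Libraries of unlike numbers were not set beside these, so the values cannot decide whether the numbers pair the groups. The number was therefore a block only in alternative fits. All libraries of a group differed beyond sampling noise. On simulated counts for 11708 genes, the test recovered 48% of 1.5-fold and 90% of 2-fold changes in gtf2i/gtf2i against wt, and 58% and 96% in ird1/ird1 against wt, with lower shares for smaller changes (8% and 10% at the smallest fold simulated). Each gene was drawn on its own, without shifts shared between genes or tied to transcript length.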

Additional observations from a re-analysis of the deposited data

How the results depend on the processing

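Over 8 contrasts the members' median log2 fold change kept its sign in every refit tried, and the count of called members stayed at 0 except as given here. With the replicate block (the title number), 624 genes and 0 members were called in gtf2i/gtf2i against wt, where 110 genes were called without it. In gtf2i/gtf2i against gtf2i it gave 892 genes (365 without) and 2 members (Rpl22 and Rpl23). The contrast of both homozygote effects gave 83 genes (20 without), and gtf2i against wt gave 2. With the replicate block and the length trend removed the counts of genes were 845, 1097 (with 4 members), 77 and 5. The block changed no other call of the members. No paired analysis was possible between the wt groups because they share no title number. Within 12419, which has 1 library a group, the members' median was -0.00614 in gtf2i/gtf2i against wt, -0.0530 between gtf2i/gtf2i and gtf2i, and 0.0550 in gtf2i against wt, and within 11902 it was 0.0895 in ird1/ird1 against ird1, each opposite in sign to the value over all libraries.

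Removal of the length trend gave 293 genes in gtf2i/gtf2i against wt and 33 in the contrast of effects (296 and 33 with the trend fitted without the members, an alternative chosen after seeing the data). It brought the members' median to -0.0400 in gtf2i against wt, 0.115 in gtf2i/gtf2i against gtf2i, -0.0389 in ird1/ird1 against wt, -0.0497 in ird1 against wt, -0.00212 in ird1/ird1 against ird1, 0.0957 in the contrast of effects and 0.0443 between the wt groups. With the trend fitted without the members the last 5 were -0.0410, -0.0499, -0.0023, 0.101 and 0.0437, and with the replicate block and the trend over all genes the first 4 of these 5 were -0.0321, -0.0497, -0.00203 and 0.120.

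DESeq2 called 310 genes in gtf2i/gtf2i against wt, 6 in gtf2i against wt, 3, 1 and 1 in the ird1-cross contrasts (ird1/ird1 and ird1 against wt, ird1/ird1 against ird1), 84 in the contrast of effects, and 1354 with 11 members between the wt groups. Fits on the compared groups alone called 31, 5 and 1 genes in gtf2i/gtf2i against wt, gtf2i against wt and ird1/ird1 against ird1, fits on all 18 libraries 262, 3 and 1 (and 1 in ird1 against wt), and library totals alone 1 in ird1 against wt. Without the libraries numbered 12419 (chosen after seeing the data) the counts were 346 genes, 849 with 6 members, and 69 in the contrast of effects.

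Leaving out 1 library at a time gave 28 to 1159 genes and 0 to 4 members in gtf2i/gtf2i against wt, 67 to 1376 and 0 to 17 in gtf2i/gtf2i against gtf2i, 12 to 723 and 0 to 11 in the contrast of effects, 0 to 2076 and 0 to 17 between the wt groups, and 0 to 1 genes in ird1 against wt. The highest counts came without the third gtf2i/gtf2i library or the first gtf2i-cross wt library. Medians ran from 0.0478 to 0.218 in gtf2i/gtf2i against wt, -0.141 to -0.00468 in gtf2i against wt and -0.197 to -0.140 in ird1/ird1 against wt. In gtf2i/gtf2i against wt the fold change of Rplp1 turned to -0.00147 without the length trend, -0.00104 with the replicate block and without that trend, and -0.0805 without the second gtf2i/gtf2i library, and that of Rpl31 ran from -0.0782 without the second wt library to 0.484 without the first. Where a cause is not named, the cause was not tested.

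Most member differences were small beside the 1.5-fold and 2-fold changes simulated at 3 libraries a group. In that simulation genes varied independently, so it does not give the test's reach for members that move together. Counting noise limits the members with few counts, and levels of members with near-identical copies are uncertain.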
